A study of Mus musculus with 76 samples.

Results

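The neurotransmitter receptor genes of the mouse hippocampus were examined as 1 group: all genes whose single symbol on the array begins with one of the stems used for ionotropic and metabotropic glutamate receptors, GABA and glycine receptors, nicotinic and muscarinic acetylcholine receptors, and serotonin, dopamine, adrenergic and adenosine receptors. The rule found 69 of 11807 genes. Of these, 68 encode receptor subunits of 13 families, and 1, Grid2ip, encodes a protein that binds a delta glutamate receptor. The families held 4 AMPA, 4 kainate, 5 NMDA and 1 delta receptor gene, 1 metabotropic glutamate receptor gene, 13 GABA-A and 1 GABA-B gene, 4 glycine, 14 nicotinic, 3 muscarinic, 13 serotonin, 3 dopamine and 2 adrenergic receptor genes. Receptor genes without an annotated probe set of 1 symbol, among them Grin1, Drd1 and the adenosine receptors, were not analysed here. RNA came from the whole hippocampus of 76 female mice, 1 array per mouse, from a cross of FVB/N breeders with a tau transgene and breeders of another inbred strain with a transactivator. rTg4510 mice carry human tau with the P301L mutation behind a tetracycline-responsive element, together with the tetracycline transactivator under the CaMKIIα promoter, which drives tau in forebrain neurons. The tTA group has only the transactivator, and DN (double negative) littermates have neither transgene. There were 10 rTg4510 mice around 1.9 months (1.7 to 2), 10 around 4.7 months and 6 around 6.1 months, while tTA and DN mice numbered 10 each around 4.7 months, 10 each around 6.1 months and 5 each around 10.7 months. No mice with the tau transgene alone are among the 76 arrays, so an effect of tau cannot be told apart from one of its insertion, and an effect of the transactivator cannot be told apart from one of its own insertion.

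Receptors receive the transmitter that a neuron releases. AMPA, kainate and NMDA receptors are channels that glutamate opens to excite a neuron, and GABA-A and glycine receptors are chloride channels that mostly inhibit it. Muscarinic, serotonin, dopamine and adrenergic receptors act mostly through G proteins, and in the hippocampus they tune the excitability of pyramidal and granule cells to input from the septum and the brainstem. Most of these receptors are assembled from several subunits with a gene each, so their genes are measured one by one.

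All differences below are in log2 units of the array signal with their SE, and adjusted p-values are from limma over all 22626 probe sets. Where a gene had several probe sets, the one with the highest mean stands for it. Of the 69 genes, 16 had a mean log2 signal above the median of all probe sets, 5.34, and 53 did not, which leaves most of them at low signals. The mouse numbers do not pair mice across groups. In whole tissue, fewer cells of a type and less RNA per cell cannot be told apart. Markers of hippocampal neurons were measured in all groups. The score of 4 measured CA1 pyramidal markers, a mean log2 signal, lay between 7.21 and 8.51 in the rTg4510 mice and between 8.26 and 8.82 in the others. The score of 7 dentate granule markers lay between 6.30 and 6.80 in DN mice and between 5.39 and 6.12 in tTA and rTg4510 mice. The score of 13 microglial markers at 4.7 months was 6.93 ± 0.20 for tTA and 7.62 ± 0.36 for rTg4510 mice (SD, n = 10 each). Mouse 40, of the rTg4510 group at 4.7 months, had the highest CA1 score of its genotype, and mouse 21, of the tTA group at 6.1 months, stood apart in 3 receptor genes.

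The regions just upstream of 4 genes that the comparisons below turn on are shown first: Htr1a and Adra2c, which were lower in tTA than in DN mice, Htr1f, which was lower in rTg4510 than in tTA mice, and Htr2c, the 1 gene that was higher at 4.7 months. Each is the 250 bases before the RefSeq start of the gene in assembly GRCm38.p6, written 5′ to 3′ on the gene's own strand. They are chr13:105443443-105443692 on the plus strand, chr5:35278316-35278565 on the plus strand, chr16:65105785-65106034 on the minus strand and chrX:146962263-146962512 on the plus strand. Capitals mark the motifs searched, which were GGGCGG (a GC box), CACGTG (an E-box) and TGACG (a half-site of the cyclic AMP response element), on both strands.
Htr1a: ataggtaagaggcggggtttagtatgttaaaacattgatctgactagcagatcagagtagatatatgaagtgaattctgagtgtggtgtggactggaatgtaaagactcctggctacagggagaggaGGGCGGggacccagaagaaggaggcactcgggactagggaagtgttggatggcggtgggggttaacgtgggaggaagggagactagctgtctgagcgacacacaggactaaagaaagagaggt
Adra2c: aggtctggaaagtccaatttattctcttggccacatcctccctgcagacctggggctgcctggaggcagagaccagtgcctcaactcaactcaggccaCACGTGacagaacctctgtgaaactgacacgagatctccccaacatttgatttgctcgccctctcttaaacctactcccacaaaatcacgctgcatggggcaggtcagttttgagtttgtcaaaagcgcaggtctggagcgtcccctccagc
Htr1f: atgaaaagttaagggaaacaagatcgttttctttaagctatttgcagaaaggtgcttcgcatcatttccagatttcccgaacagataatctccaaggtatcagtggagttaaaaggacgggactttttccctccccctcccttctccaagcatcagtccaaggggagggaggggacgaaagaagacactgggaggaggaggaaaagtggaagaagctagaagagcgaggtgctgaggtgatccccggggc
Htr2c: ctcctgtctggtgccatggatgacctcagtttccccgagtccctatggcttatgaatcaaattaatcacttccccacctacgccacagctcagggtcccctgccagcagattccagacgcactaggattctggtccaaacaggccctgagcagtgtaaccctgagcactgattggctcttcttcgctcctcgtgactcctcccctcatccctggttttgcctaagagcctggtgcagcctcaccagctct
The window of Htr1a held a GC box that begins at position -123 from the start, and that of Adra2c an E-box at position -152. The windows of Htr1f and Htr2c held none of the 3 motifs, which says only that these letters are not in these windows. Over all 32851 windows of this length, 32.7% held the GC box, 6.02% the E-box and 17.8% the half-site. RefSeq windows were matched for 53 of the 69 genes, of which 26 held the GC box, 2 the E-box and 6 the half-site.

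Setting rTg4510 beside tTA mice asks how receptor genes differ once tau, or its insertion, is added to the transactivator. At 4.7 months 5 receptor genes were lower and 1 was higher. The 5 were Htr5b and Htr1a, serotonin receptors, Gabrd, the delta subunit of extrasynaptic GABA-A receptors, Grin2a, an NMDA receptor subunit, and Chrm1, the muscarinic receptor that predominates on pyramidal cells; the 1 higher gene was Htr2c, another serotonin receptor. At 6.1 months 10 were lower: Htr5b, Htr1a, Gabrd and Chrm1 again, with Htr1f, Chrna5, Grik5, Adra2c, Gria1 and Gabbr1, while Gabra2 alone was higher. The 6 called genes at 4.7 months were 8.7% of the members, against 9.1% of all 11807 genes. The 11 at 6.1 months were 15.9%, against 14.9% of all genes. By direction, 7.25% of members were lower at 4.7 months against 3.38% of all genes, and 14.5% at 6.1 months against 8.64%. The 1 higher member at each age compares with 5.73% and 6.23% of all genes. Among genes with a mean signal above the median of all probe sets, 3 of 16 members against 5.48% of all such genes were lower at 4.7 months, and 6 of 16 against 13.9% at 6.1 months. The median difference over the 69 members was -0.04 at 4.7 months and -0.05 at 6.1 months, against -0.01 and -0.02 over all genes, and 50 and 49 of the 69 members had a difference below 0. Without mouse 40 the 6 calls at 4.7 months became 9, adding Gria1, Gria2 and Grin2b, and without mouse 21 the 11 calls at 6.1 months became 13, adding Gria2 and Grin2c. Of the 16 brighter members 1 was higher at each age, against 445 and 489 of 6480 such genes. Over all 69 members, most of them of low signal, the share called in either direction thus lay near that of all genes.

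**Figure D1:**
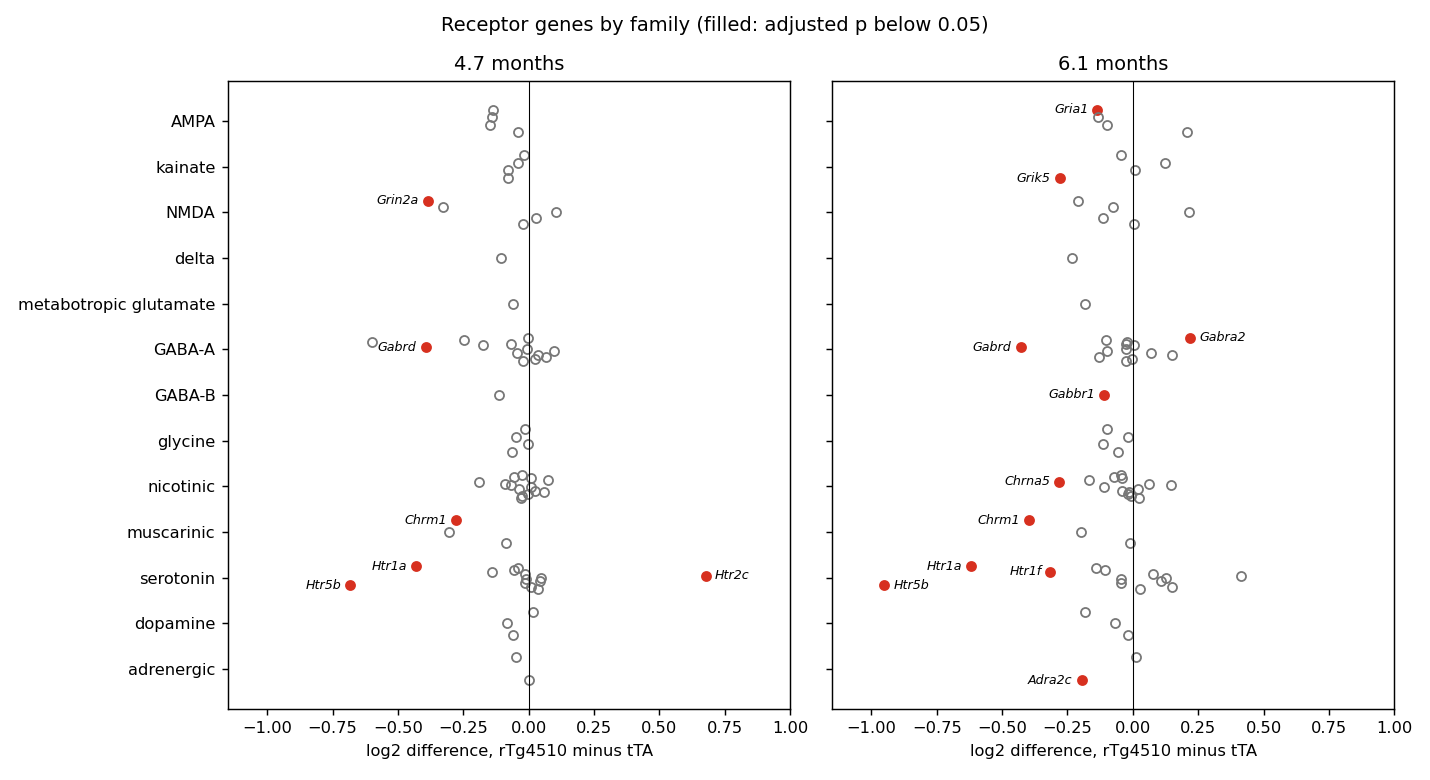
Log2 difference of rTg4510 minus tTA (x axis) of each of the 68 receptor genes, by family (y axis), at 4.7 and at 6.1 months; filled and named points passed an adjusted p of 0.05. Most points lie near 0, with Htr5b at -0.68 and -0.95 and Htr1a at -0.43 and -0.62 on the low side, and Htr2c at 0.68 on the high side at 4.7 months.

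Serotonin receptors showed the largest of the called differences at both ages. Of their 13 genes, 2 were lower and 1 higher at 4.7 months, and 3 were lower at 6.1 months. Htr5b, which encodes a G protein coupled serotonin receptor of rodents, had a lowest, median and highest log2 signal of 5.05, 5.36 and 5.54 in tTA mice at 4.7 months. In rTg4510 mice of that age the values were 4.33, 4.73 and 4.94. All 10 rTg4510 mice lay below all 10 tTA mice, a separation that 0.0339% of all genes showed in this direction, and the difference was -0.68 ± 0.09, adjusted p = 6.78e-06. At 6.1 months the signal of Htr5b was 4.98, 5.16 and 5.61 in tTA and 3.92, 4.20 and 4.81 in rTg4510 mice. Again the groups did not overlap, and the difference was -0.95 ± 0.11, adjusted p = 6.16e-07.

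Htr1a encodes an inhibitory receptor that serotonin engages on hippocampal pyramidal and granule cells. Its signal was 6.64, 6.87 and 7.14 in tTA and 6.11, 6.41 and 6.95 in rTg4510 mice at 4.7 months (lowest, median and highest). Of the 10 rTg4510 mice 8 lay below all tTA mice, and mouse 40 was the highest of its group. The difference was -0.43 ± 0.08, adjusted p = 0.000431. At 6.1 months the values were 6.57, 6.77 and 6.93 in tTA and 6.02, 6.05 and 6.41 in rTg4510 mice, with no overlap and a difference of -0.62 ± 0.07, adjusted p = 3.04e-07. A further probe set of the gene gave -0.35 ± 0.08 at 4.7 months (adjusted p = 0.00488) but -0.16 ± 0.09 at 6.1 months (adjusted p = 0.283), so the 2 probe sets differed in whether the gene was called at the later age.

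Htr1f, an inhibitory serotonin receptor gene, was 3.52, 3.70 and 3.93 in tTA and 3.21, 3.43 and 3.50 in rTg4510 mice at 6.1 months. These are low signals, below the median of all probe sets, 5.34. All 6 rTg4510 mice lay below all 10 tTA mice, and the difference was -0.32 ± 0.07, adjusted p = 0.00221. The gene was not called at 4.7 months (-0.14 ± 0.07, adjusted p = 0.267). Htr5b, Htr1a and Htr1f were the members whose groups did not overlap at 6.1 months, against 1.58% of all genes in this direction. The remaining serotonin receptor genes other than Htr2c, among them Htr3a, a cation channel of interneurons, Htr4, Htr6 and Htr7, lay between -0.14 and 0.15 at 6.1 months and none passed.

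**Figure D2:**
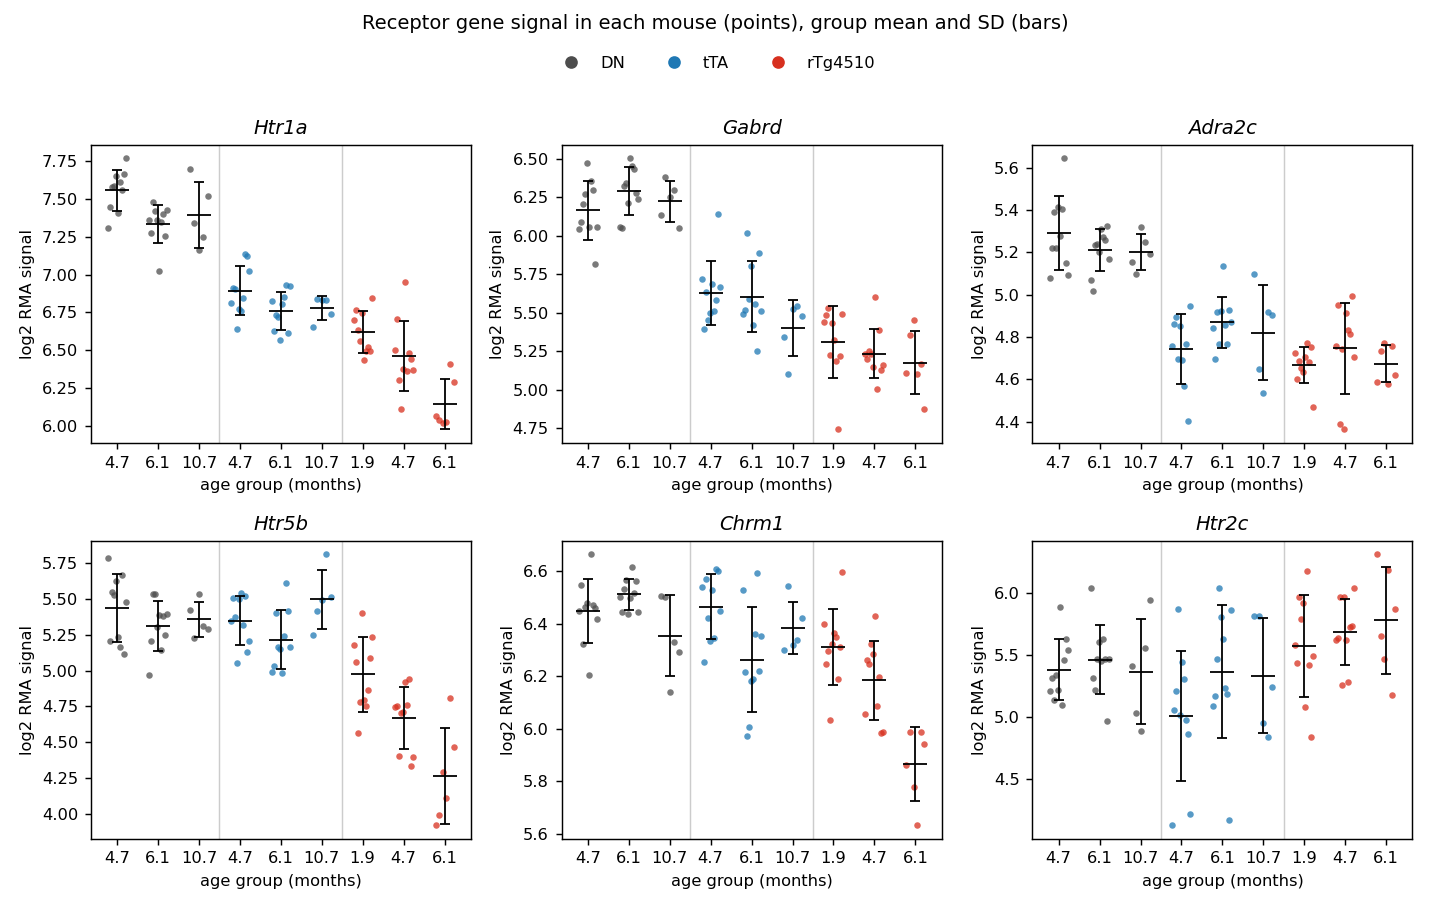
Log2 RMA signal (y axis) of 6 receptor genes for every mouse (points), grouped on the x axis by genotype and months of age, where black bars give mean and SD of a group. Mean Htr1a, Gabrd and Adra2c are highest in DN mice at each shared age, mean Htr5b and Chrm1 are lowest in rTg4510 mice of 6.1 months, and Htr2c in tTA mice spans 4.13 to 6.04.

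The lower Htr5b, Htr1a and Chrm1 of rTg4510 mice went with lower markers of CA1 pyramidal cells. At 4.7 months the CA1 score was 8.58 ± 0.10 for tTA and 7.97 ± 0.25 for rTg4510 mice (SD, n = 10 each). At 6.1 months it was 8.60 ± 0.11 for tTA (n = 10) and 7.51 ± 0.24 for rTg4510 mice (n = 6). Of the 4 measured CA1 markers, 3 were lower at 4.7 months and 4 at 6.1 months. Of the 7 dentate granule markers 2 were lower at 4.7 months, and 1 was lower and 1 higher at 6.1 months. Other cell types moved as well: 10 of 13 microglial markers were higher at 4.7 months and 11 at 6.1 months (median differences 0.57 and 0.98), as were 3 and 7 of 8 astrocyte markers (0.16 and 0.27). Of 5 striatum markers 3 were lower at 6.1 months (median difference -0.37). The part of these markers in the receptor differences was not tested.

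Htr2c, a receptor expressed in neurons and at a very high level in the epithelium of the choroid plexus, was higher in rTg4510 mice at 4.7 months. Its signal was 4.13, 5.04 and 5.87 in tTA and 5.25, 5.68 and 6.04 in rTg4510 mice (lowest, median and highest). Only 3 of 10 rTg4510 mice lay above all tTA mice, and the difference was 0.68 ± 0.15, adjusted p = 0.00488. Choroid plexus markers differed in the same direction: the score of 12 markers was 5.26 ± 1.39 for tTA and 6.81 ± 1.39 for rTg4510 mice (SD, n = 10 each), ranging from 4.27 to 7.94 and from 4.36 to 8.28, with a median marker difference of 1.51 and 0 of 12 markers called by limma but 12 of 12 at an unadjusted p under 0.05. Adjusted for this score, the difference in Htr2c was 0.43, adjusted p = 0.0804, and the call was lost. At 6.1 months Htr2c differed by 0.41 ± 0.21, adjusted p = 0.221, which did not pass, and mouse 21, a tTA mouse, was the lowest at 4.17.

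Across mice the choroid plexus score fell into 2 clusters, 29 mice from 4.07 to 5.18 and 47 mice from 5.73 to 8.47, a split chosen after the scores were seen. Among the 47 mice of higher score, Htr2c and the score had Pearson r = 0.659 and Spearman rho = 0.731. Each had a two-sided permutation p = 2e-05 (adjusted p = 4e-05 over the 2 clusters). Without the 2 mice farthest from the median score r was 0.646. Among the 29 mice of lower score r was -0.385 (permutation p = 0.0498) and rho -0.464 (permutation p = 0.0127), and r was -0.223 (permutation p = 0.264) without the 2 farthest mice; rho was not recomputed without them. These values pool 9 groups of genotype and age. Within the 7 groups of at least 6 mice r lay between 0.286 in tTA mice of 6.1 months (permutation p = 0.439, adjusted p = 0.54) and 0.967 in rTg4510 mice of 6.1 months (exact permutation p = 0.00278, adjusted p = 0.0148), over 16 relations computed. Without the 2 farthest mice r fell from 0.699 to 0.304 in tTA mice of 4.7 months and from 0.71 to 0.222 in DN mice of that age. It also fell from 0.866 to 0.767 in DN mice of 6.1 months and from 0.554 to 0.412 in rTg4510 mice of 4.7 months. It rose from 0.716 to 0.843 in rTg4510 mice of 1.9 months and from 0.286 to 0.492 in tTA mice of 6.1 months. In rTg4510 mice of 6.1 months, where 4 mice were left, r went from 0.967 to 0.987. In tTA mice of 4.7 months 7 of 10 lay in the lower cluster, with a mean Htr2c signal of 4.78 against 5.54 in the other 3. In rTg4510 mice of that age 2 of 10 lay there, at 5.45 against 5.74. Within each cluster the rTg4510 mean was above the tTA mean, a difference that was not tested.

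**Figure D3:**
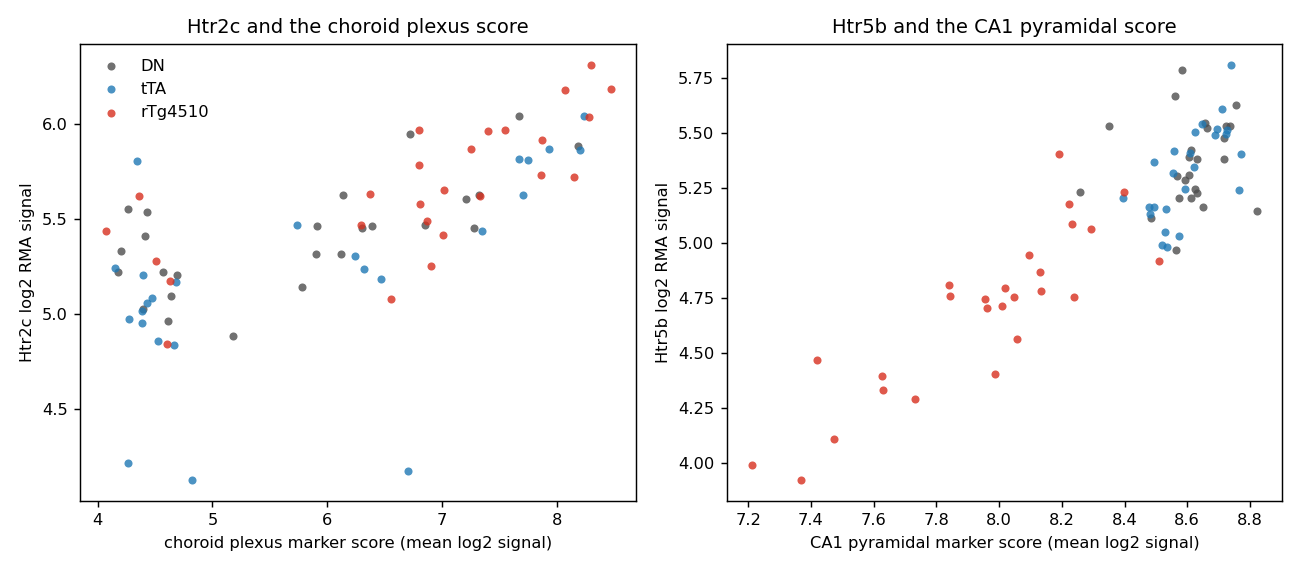
Left, Htr2c log2 RMA signal (y axis) against the choroid plexus marker score (x axis, mean log2 signal of 12 markers) in 76 mice coloured by genotype; Htr2c climbs with the score among the 47 mice above 5.73. Right, Htr5b signal against the CA1 pyramidal score of 4 markers; rTg4510 mice extend to the low end of both, with Htr5b down to 3.92 and a score down to 7.21.

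Among the ionotropic glutamate receptors, the AMPA receptor genes Gria1, Gria2 and Gria3 encode the main subunits of fast excitatory channels. Gria1 was 10.98, 11.11 and 11.21 in tTA and 10.81, 10.97 and 11.09 in rTg4510 mice at 6.1 months, with 3 of 6 rTg4510 mice below all tTA mice and a difference of -0.14 ± 0.04, adjusted p = 0.0287. At 4.7 months the difference was of like size and did not pass (-0.14 ± 0.05, adjusted p = 0.0744), although a further probe set of Gria1 did (-0.15 ± 0.05, adjusted p = 0.0436), as it did at 6.1 months (-0.18 ± 0.04, adjusted p = 0.00566). Gria2 was just outside the threshold at 4.7 months (-0.14 ± 0.05, adjusted p = 0.0505). Gria3 differed by -0.15 and -0.10 and Gria4 by -0.04 and 0.21, none of them past the threshold. The call of Gria1 at 6.1 months did not hold when all 9 groups were fitted together, when only the compared pair was fitted, after quantile normalisation, or after adjustment for the choroid plexus score.

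Grin2a encodes an NMDA receptor subunit of mature synapses. It was 4.54, 5.02 and 5.16 in tTA and 4.36, 4.56 and 4.83 in rTg4510 mice at 4.7 months. Of the rTg4510 mice 4 of 10 lay below all tTA mice, while 8 of 10 tTA mice lay above all rTg4510 mice, and the difference was -0.39 ± 0.09, adjusted p = 0.00543; adjusted for the choroid plexus score it was -0.31, adjusted p = 0.0636. At 6.1 months it was -0.21 ± 0.13, adjusted p = 0.35, not called, with tTA mice spread from 4.13 to 5.31. Grin2b, the other abundant subunit of forebrain NMDA receptors, differed by -0.33 ± 0.12, adjusted p = 0.105 and -0.08 ± 0.12, adjusted p = 0.781 at the same ages. Its signal at 4.7 months was the highest of the rTg4510 group in mouse 40 (5.40) and the lowest of the tTA group in mouse 69 (4.34). The other NMDA genes were Grin2c, with 0.11 and 0.21, Grin2d and Grin3b, and none passed.

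Of the 4 kainate receptor genes only Grik5, an auxiliary high-affinity subunit, was called. At 6.1 months it was 8.42, 8.55 and 9.10 in tTA and 8.23, 8.29 and 8.52 in rTg4510 mice, and 5 of 6 rTg4510 mice lay below all tTA mice. Mouse 21 was the highest tTA mouse. The difference was -0.28 ± 0.07, adjusted p = 0.0104, and the gene stayed past the threshold without mouse 21 (-0.22, adjusted p = 0.00464) but not with only the compared groups in the fit (adjusted p = 0.0512). The delta receptor gene Grid1 differed by -0.23 ± 0.08, adjusted p = 0.0681, and Grm8, the 1 metabotropic glutamate receptor gene measured, a presynaptic inhibitory receptor, by -0.18 ± 0.11, adjusted p = 0.343; neither passed.

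Among the 13 GABA-A receptor genes, Gabrd was called lower at both ages. Its delta subunit forms receptors outside synapses that carry tonic inhibition and are rich in dentate granule cells. The signal was 5.39, 5.61 and 6.14 in tTA and 5.00, 5.21 and 5.60 in rTg4510 mice at 4.7 months, and 9 of 10 rTg4510 mice lay below all tTA mice, for a difference of -0.39 ± 0.08, adjusted p = 0.00172. The highest tTA value belonged to mouse 68, at 6.14 against 5.72 in the next mouse. At 6.1 months the values were 5.25, 5.54 and 6.02 in tTA and 4.87, 5.14 and 5.46 in rTg4510 mice, 4 of 6 below all tTA mice, and the difference was -0.43 ± 0.10, adjusted p = 0.00339.

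Gabra2, a synaptic GABA-A receptor subunit, was higher in rTg4510 than in tTA mice at 6.1 months (0.22 ± 0.07, adjusted p = 0.0279). Its signal was 8.18, 8.50 and 8.70 in tTA, 8.50, 8.74 and 8.86 in rTg4510 and 8.78, 8.83 and 8.97 in DN mice. The tTA mice were thus the low group, and the difference of rTg4510 from DN mice did not pass (-0.14 ± 0.07, adjusted p = 0.161). The call against tTA mice was lost after each array was centred on its median (0.19, adjusted p = 0.0677), with only the compared groups in the fit, and without the mice numbered 75 and above. No other GABA-A gene passed at either age, with Gabrb1 at -0.07 and -0.03 and Gabra6 at -0.60 ± 0.42 at 4.7 months, a difference with a large error.

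Gabbr1, an obligate subunit of the metabotropic GABA-B receptor, was 10.68, 10.76 and 10.85 in tTA and 10.56, 10.65 and 10.78 in rTg4510 mice at 6.1 months. The difference was small (-0.11 ± 0.04, adjusted p = 0.0394), and the gene's other 2 probe sets gave 0.04 ± 0.11 and -0.11 ± 0.04, neither called. With the mean of its probe sets the difference was -0.06, adjusted p = 0.459. The call of Gabbr1 held in 7 of 11 alternatives. All 4 glycine receptor genes stayed between -0.11 and -0.02 at 6.1 months without a call. Glrb, the subunit that anchors glycine receptors at synapses, was at -0.06 ± 0.06 at 4.7 months and -0.06 ± 0.07 at 6.1 months.

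Chrm1 was the called member of the 3 muscarinic receptor genes. Its signal was 6.25, 6.49 and 6.61 in tTA and 5.98, 6.22 and 6.43 in rTg4510 mice at 4.7 months, with 6 of 10 rTg4510 mice below all tTA mice and a difference of -0.28 ± 0.06, adjusted p = 0.0022. At 6.1 months the values were 5.97, 6.22 and 6.59 and 5.63, 5.90 and 5.99, with 4 of 6 rTg4510 mice below all tTA mice and a difference of -0.40 ± 0.07, adjusted p = 0.000389. Chrm3, a related receptor coupled to the same G protein, differed by -0.30 ± 0.12, adjusted p = 0.13 and -0.20 ± 0.12, adjusted p = 0.343 and did not pass. Chrm4, a muscarinic receptor of the inhibitory type, differed by -0.09 and -0.01.

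Chrna5, an accessory nicotinic subunit, was the 1 of 14 nicotinic receptor genes past the threshold, at 6.1 months. It was 3.58, 3.88 and 4.13 in tTA and 3.29, 3.58 and 3.73 in rTg4510 mice, with 3 of 6 rTg4510 mice below all tTA mice, and the difference was -0.28 ± 0.08, adjusted p = 0.027. This call held in 7 of 10 alternatives, and with all 9 groups in the fit the adjusted p was 0.055. The mean signal of Chrna5 over all arrays was low, at 3.89. Chrna7, which forms the calcium-permeable nicotinic receptor of the hippocampus, differed by 0.15 ± 0.08, adjusted p = 0.242, and Chrna4, a main subunit of high-affinity nicotinic receptors, by -0.17 ± 0.09, adjusted p = 0.23.

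Of the adrenergic receptor genes, Adra2c, an inhibitory receptor for noradrenaline, did not pass at 4.7 months (0.00 ± 0.08, adjusted p = 0.992) and was lower in rTg4510 mice at 6.1 months (-0.20 ± 0.06, adjusted p = 0.019). The later values were 4.69, 4.86 and 5.14 in tTA and 4.58, 4.68 and 4.77 in rTg4510 mice, which overlapped for 3 of 6 rTg4510 mice. The highest tTA value was that of mouse 18. With all 9 groups in the fit the adjusted p was 0.079. From 4.7 to 6.1 months Adra2c differed by -0.07 ± 0.08 in rTg4510 mice and by 0.13 ± 0.07 in tTA mice, neither called. Adra1b and the dopamine receptor genes Drd2, Drd3 and Drd4 were not called at either age. Drd2, an inhibitory dopamine receptor that is abundant in the neighbouring striatum, differed by -0.18 ± 0.14, adjusted p = 0.479.

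Setting tTA beside DN mice asks how receptor genes differ with the transactivator, or its insertion, in the absence of tau. All called differences were lower in tTA mice: 4 genes at 4.7 months (5.8% of members, against 4.67% of all genes, 3.16% lower), 9 at 6.1 months (13%, against 6.32%, 3.62% lower) and 2 at 10.7 months (2.9%, against 1.1%, 0.762% lower). Htr1a and Gabrd were called at all 3 ages. At 4.7 months the signal of Htr1a was 7.31, 7.58 and 7.77 in DN mice against 6.64, 6.87 and 7.14 in tTA mice, with no overlap and a difference of -0.67 ± 0.08, adjusted p = 3.64e-07. At 6.1 months it was 7.03, 7.36 and 7.48 in DN mice, again above every tTA mouse, and the difference was -0.58 ± 0.06, adjusted p = 1.72e-07. At 10.7 months the 5 DN mice had 7.16, 7.25, 7.34, 7.52 and 7.70, and the 5 tTA mice had 6.66, 6.74, 6.83, 6.83 and 6.84 (-0.62 ± 0.09, adjusted p = 0.00702). The 10.7 month call of Htr1a was lost on the linear scale (adjusted p = 0.0789) and under the plain linear model (adjusted p = 0.0679). The further probe set of Htr1a gave -0.30 ± 0.08 at 4.7 months (adjusted p = 0.0245), -0.57 ± 0.08 at 6.1 months (adjusted p = 1.34e-05) and -0.50 ± 0.13 at 10.7 months (adjusted p = 0.129), the last not called.

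Gabrd was 5.82, 6.15 and 6.48 in DN mice at 4.7 months and 6.05, 6.30 and 6.50 at 6.1 months. The differences of tTA from DN mice were -0.54 ± 0.08, adjusted p = 3.2e-05 and -0.69 ± 0.09, adjusted p = 3.17e-06, and at 10.7 months -0.83 ± 0.09, adjusted p = 0.000619. At 10.7 months the DN mice had 6.05, 6.13, 6.25, 6.30 and 6.39 and the tTA mice 5.10, 5.34, 5.48, 5.53 and 5.54. The groups overlapped at 4.7 months, where 9 of 10 tTA mice lay below all DN mice, and not at the later ages. Adra2c was lower, by -0.55 ± 0.08, adjusted p = 2.22e-05 at 4.7 months, without overlap, and by -0.34 ± 0.05, adjusted p = 2.56e-05 at 6.1 months. Htr4, a serotonin receptor coupled to cyclic AMP, was the remaining call at 4.7 months, at -0.21 ± 0.05, adjusted p = 0.0146. The mean signal of Htr4 over all arrays was low, at 3.29. For Adra2c a difference of -0.38 ± 0.10, adjusted p = 0.124 at 10.7 months, over 5 mice a group, did not pass.

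At 6.1 months the other genes lower in tTA than in DN mice were Chrna7 (-0.40 ± 0.07, adjusted p = 0.000192), Gabra2 (-0.36 ± 0.06, adjusted p = 0.000126), Chrm1 (-0.25 ± 0.06, adjusted p = 0.0169), Gria3 (-0.22 ± 0.06, adjusted p = 0.0367), Htr6, another such serotonin receptor (-0.21 ± 0.06, adjusted p = 0.0341), and Gria1 (-0.20 ± 0.04, adjusted p = 0.00054). Gria1 and Gabra2 did not overlap between the groups, which with Htr1a and Gabrd made 4 members, against 0.872% of all genes in this direction. At 4.7 months the members without overlap were Htr1a and Adra2c (0.635% of all genes), and at 10.7 months Htr1a and Gabrd (1.9%). Chrna5 lay above every DN mouse in all 5 tTA mice at 10.7 months, as 1.12% of all genes did in that direction. The difference in Chrna5 did not pass (0.37 ± 0.14, adjusted p = 0.409). Gria3 and Htr6 were not called without mouse 21 (adjusted p = 0.0648 and 0.0584), and this was not the only alternative that lost their calls. Over all alternatives Gria3 held its call in 8 of 11 (adjusted p up to 0.121) and Htr6 in 6 of 10 (up to 0.0619). Chrm1 held its call in 10 of 11 (up to 0.0679). The mean signal of Htr6 over all arrays was low, at 3.48. Htr5b, the member of largest difference between rTg4510 and tTA mice, did not pass between tTA and DN mice, with -0.09 ± 0.09, adjusted p = 0.781, then -0.09 ± 0.10, adjusted p = 0.732, then 0.14 ± 0.10, adjusted p = 0.756 for the 3 ages.

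The dentate granule markers were also lower in tTA mice. Around 4.7 months their score was 6.62 ± 0.14 for DN and 5.95 ± 0.11 for tTA mice (SD, n = 10 each), then 6.65 ± 0.09 against 5.74 ± 0.09 around 6.1 months (n = 10 each) and 6.65 ± 0.16 against 5.71 ± 0.12 around 10.7 months (n = 5 each). Of the 7 markers 5, 6 and 5 were lower in tTA mice at the 3 ages, and 1 was higher at 4.7 months. The CA1 score differed less, at 8.66 ± 0.09 in DN and 8.60 ± 0.11 in tTA mice at 6.1 months (n = 10 each). Of 5 CA3 pyramidal markers 2, 3 and 2 were lower at the successive ages and 1 was higher at 10.7 months (median differences -0.08, -0.25 and -0.32), and 1, 5 and 0 of 13 microglial markers were higher (0.30, 0.16 and 0.02), with 0 of the 13 at an unadjusted p under 0.05 at 10.7 months. The part of these markers in the lower Htr1a and Gabrd signals was not tested.

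**Figure D4:**
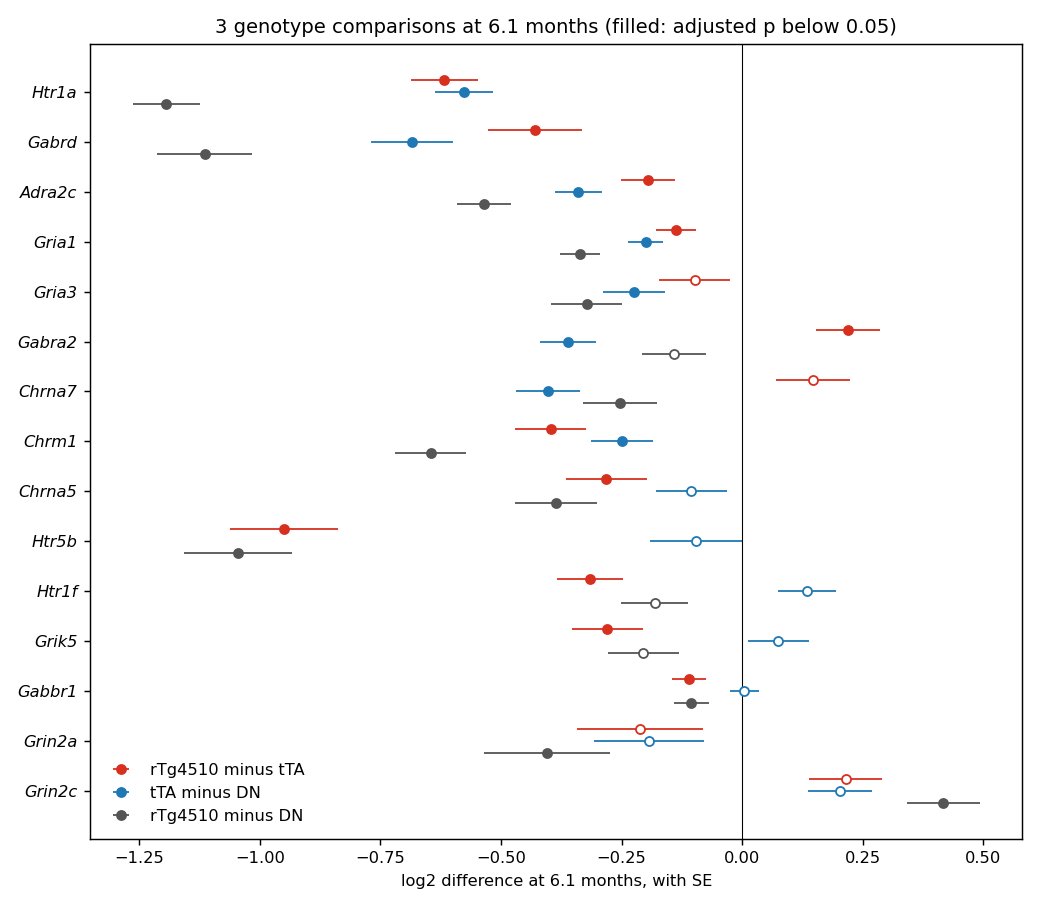
Log2 difference with its SE (x axis) of 15 receptor genes (y axis) at 6.1 months in the 3 comparisons of genotypes, which share their groups; filled points passed an adjusted p of 0.05. For the probe set shown, Htr1a is lower by similar amounts in both steps, at -0.58 from DN to tTA and -0.62 from tTA to rTg4510. The further probe set of Htr1a, not shown, gave -0.57 and -0.16, the latter not called. For Htr5b the values are -0.09 and -0.95.

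rTg4510 mice carry both transgenes and DN mice neither, so this comparison shares its groups with both others and is no independent evidence. At 4.7 months 10 members were lower and 0 higher (14.5% of members, against 15.8% of all genes, of which 7.91% lower). At 6.1 months 16 were lower and 1 higher (24.6%, against 19.9%, of which 11.4% lower and 8.55% higher). Without overlap at 4.7 months were Gabrd, Adra2c, Htr1a and Htr5b, against 0.864% of all genes in this direction. Htr1a was -1.10 ± 0.08, adjusted p = 6.16e-12 at 4.7 months and -1.19 ± 0.07, adjusted p = 4.35e-13 at 6.1 months. Gabrd was -0.93 ± 0.08, adjusted p = 6.01e-10 and -1.11 ± 0.10, adjusted p = 1.94e-09, and Adra2c -0.54 ± 0.08, adjusted p = 7.85e-06 and -0.54 ± 0.06, adjusted p = 4.03e-08. Htr5b was -0.77 ± 0.09, adjusted p = 1.68e-07 and -1.05 ± 0.11, adjusted p = 6.28e-08. All 4 genes were below every DN mouse in all rTg4510 mice of both ages. The other calls at 4.7 months were Chrm3, Grin2a, Gria1, Chrm1, Gria2 and Htr4, from -0.37 for Chrm3 to -0.16 for Htr4. Of these, Chrm3 held its call in 6 of 9 alternatives (adjusted p up to 0.129), Htr4 in 7 of 9 (up to 0.122) and Grin2a in 8 of 9 (up to 0.0546), and Gria2 lost it with the mean of its probe sets (-0.08, adjusted p = 0.868).

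Gria1, Gria2 and Gria3 were in turn -0.34 ± 0.04, adjusted p = 6.91e-07; -0.26 ± 0.05, adjusted p = 0.000294; and -0.32 ± 0.07, adjusted p = 0.00244 around 6.1 months, and all 6 rTg4510 mice lay below all 10 DN mice in each. Together with Htr1a, Htr5b, Gabrd, Adra2c and Chrm1 these made 8 members without overlap, against 4.01% of all genes in this direction. Grin2c, an NMDA receptor subunit that astrocytes and some interneurons express, was the 1 member higher than in DN mice, with 6.08, 6.17 and 6.24 in DN and 6.41, 6.55 and 6.76 in rTg4510 mice (0.42 ± 0.08, adjusted p = 0.00019), again without overlap (3.13% of all genes in that direction). Astrocyte markers moved the same way, with 7 of 8 higher in rTg4510 than in DN mice at 6.1 months; their part in the Grin2c difference was not tested. The remaining called genes were Grin2a, Grin2b, Grid1, Gabbr1, Chrm3, Chrna5, Chrna7 and Htr1b, an inhibitory receptor of axon terminals, from -0.45 for Chrm3 to -0.10 for Gabbr1. The call of Grin2b held in 3 of 9 alternatives (adjusted p from 0.02 to 0.116) and that of Grin2a in 7 of 9 (adjusted p from 0.00458 to 0.0827). The second probe set of Gria2 gave 0.42 ± 0.45 at 6.1 months and that of Grin2b 0.04 ± 0.06, neither called.

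Age was tested within each genotype. In rTg4510 mice, from 1.9 to 6.1 months, 4 members passed the F test (5.8%, against 2.87% of all genes), all lower at 6.1 than at 1.9 months, a direct contrast that called 4.12% of all genes, 2.28% lower: Htr5b by -0.71 ± 0.13 (adjusted p = 0.00163), Htr1a by -0.48 ± 0.09 (adjusted p = 0.00265), Chrna5 by -0.48 ± 0.09 (adjusted p = 0.00342) and Chrm1 by -0.44 ± 0.07 (adjusted p = 0.00071). At 1.9 months the signal of Htr5b was 4.56, 4.96 and 5.40 and that of Htr1a 6.43, 6.60 and 6.84 (lowest, median and highest). The 6 mice of 6.1 months lay below all 10 mice of 1.9 months for Htr1a and Chrm1 (0.559% of all genes), and 5 of 6 did for Htr5b. Chrna5 went from 3.71, 4.06 and 4.38 to 3.29, 3.58 and 3.73. Over the same ages the CA1 score of the rTg4510 mice was 8.19 ± 0.11 (SD, n = 10), 7.97 ± 0.25 (n = 10) and 7.51 ± 0.24 (n = 6). Gabrd and Adra2c did not pass the F test in rTg4510 mice (adjusted p = 0.73 and 0.758), and their means at 1.9 months, 5.31 and 4.67, were already near those at 6.1 months, 5.18 and 4.67. No control of 1.9 months was measured, so whether the early levels differ from those of tTA mice cannot be told.

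In tTA and in DN mice 0 members passed the limma F test over 4.7, 6.1 and 10.7 months (against 0.296% and 0.364% of all genes), with 11 and 6 at an unadjusted p under 0.05, and 0 by the plain linear model. With all 9 groups in the fit Gabra2 passed in tTA mice. The test of whether the difference of rTg4510 from tTA mice changed between 4.7 and 6.1 months called 0 members by limma and by the plain linear model, and 0% of all genes, with 4 members at an unadjusted p under 0.05. The change was -0.27 ± 0.15 for Htr5b (adjusted p = 0.663), -0.19 ± 0.11 for Htr1a (adjusted p = 0.692), -0.12 ± 0.09 for Chrm1 (adjusted p = 0.791) and -0.03 ± 0.13 for Gabrd (adjusted p = 0.969). A gene called at 6.1 and not at 4.7 months is therefore not shown to differ between the ages.

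Of 92 genes that act with these receptors, in 7 lists, 55 were measured. In rTg4510 against tTA mice 13 were lower and 1 higher at 4.7 months, and 14 were lower and 3 higher at 6.1 months. Of all genes, 3.38% were lower and 5.73% higher at 4.7 months, and 8.64% were lower and 6.23% higher at 6.1 months. Of the postsynaptic scaffold and kinase genes 6 of 10 were lower at 4.7 months and 4 of 10 at 6.1 months, with medians of -0.15 and -0.14. Homer2, a scaffold of metabotropic glutamate receptors, was lower, at -0.50 ± 0.07, adjusted p = 9.13e-06 and -0.66 ± 0.07, adjusted p = 2.51e-07. Dlg3, a scaffold of NMDA receptors, was -0.14 ± 0.04, adjusted p = 0.0391 and -0.27 ± 0.04, adjusted p = 4.16e-06, and Camk2b, a subunit of the calcium/calmodulin kinase of the postsynaptic density, was -0.17 ± 0.04, adjusted p = 0.016 and -0.22 ± 0.06, adjusted p = 0.0105. Camk2a was lower at 4.7 months (-0.41 ± 0.12, adjusted p = 0.025) and not at 6.1 months (0.03 ± 0.21, adjusted p = 0.959).

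Among 11 partners of AMPA and kainate receptors 2 were lower at each age: Cacng8, an auxiliary AMPA receptor subunit of the hippocampus, at 4.7 months (-0.53 ± 0.11, adjusted p = 0.0022), Cnih2, which aids AMPA receptor export, at both (-0.20 ± 0.05 and -0.18 ± 0.05), and Grip1, an AMPA receptor scaffold, at 6.1 months (-0.26 ± 0.07, adjusted p = 0.0138). Of 3 genes of glutamate release and clearance, 1 was lower at 4.7 months, and at 6.1 months 2 were lower and 1 higher. Slc1a1, the neuronal glutamate transporter, was -0.18 ± 0.04 and -0.31 ± 0.04, and Slc1a2, the main astrocytic one, was higher at 6.1 months (0.24 ± 0.06, adjusted p = 0.011). Slc17a6, a vesicular glutamate transporter, was -0.66 ± 0.16, adjusted p = 0.00578 at 6.1 months. Of 15 genes of G protein and cyclic AMP signalling 3 were lower and 1 higher at 4.7 months, and 5 lower and 2 higher at 6.1 months, led by Rgs14, a regulator of G protein signalling, at -0.48 ± 0.06, adjusted p = 7.82e-06 and -0.70 ± 0.06, adjusted p = 8.7e-09. Gnai2, an inhibitory G protein subunit, was higher at both ages (0.20 ± 0.06 and 0.31 ± 0.07), and Kcnj9, a potassium channel that such G proteins open, was lower at 6.1 months (-0.35 ± 0.08, adjusted p = 0.00228).

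Of 4 partners of GABA and glycine receptors 1 was lower at each age: Kctd12, an auxiliary subunit of GABA-B receptors, at 4.7 months (-0.17 ± 0.05, adjusted p = 0.0278) and Nlgn2, an adhesion protein of inhibitory synapses, at 6.1 months (-0.22 ± 0.05, adjusted p = 0.00354). None of 4 genes of GABA synthesis, release and clearance and none of 8 genes of acetylcholine and monoamine handling passed in limma at either age, with median differences of 0.07 and 0.01 at 4.7 months and 0.10 and -0.01 at 6.1 months. At an unadjusted p under 0.05 there were 2 and 1 of the 4 at the successive ages, and 0 of the 8 at both. Of 11 markers of inhibitory interneurons 1 was lower at the first age, and 3 were higher with 1 lower at the second. In the comparison of tTA with DN mice 55 genes of the 7 lists gave 2 lower and 1 higher at 4.7 months. They gave 8 lower and 2 higher at 6.1 months, and 1 lower at 10.7 months. Of all genes, 4.67%, 6.32% and 1.1% were called in either direction at these ages, and 3.16%, 3.62% and 0.762% were lower.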

How the data were processed

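Total RNA of the hippocampus of 76 female mice was amplified with the Ovation Pico WTA kit, labelled with biotin and hybridised to the Affymetrix HT-MG-430A array, 1 array per mouse, of which the number limits the precision. RMA by the authors gave the deposited log2 signals; the method corrects background, equalises the arrays' distributions and combines the probes of a probe set. The study's methods name anti-log RMA, but the deposited values are on the log2 scale (array medians 5.23 to 5.39). The submitters' processing notes name RMA with no version, and the build behind the array is not given in the sources used here. RMA makes the arrays alike in distribution, so a shift common to most genes would not be seen. The study excluded 1 outlying tTA array at 6.1 months. No label says whether that array is among the 76, all of which were kept here. The highest correlation between 2 arrays was 0.9979, and no 2 held the same values.

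Of 22716 probe sets 90 controls were left out and 22626 tested. The array's annotation gave 1 symbol for 18003 probe sets (several for 287, not listed for 4336), and for 17977 the gene identifier was found in RefSeq (GRCm38.p6), which set the symbol. Of the 69 genes, 56 had 1 probe set and 13 several, 84 in all. Ages were grouped as the study groups them, and the oldest tTA and DN mice around 10.7 months. Groups come from the labels. Controls were littermates per the study's methods, but which mice shared a litter is not given in the sources used here, so litter could not be a block. limma 3.58.1 in R 4.3.3 fitted a mean per group with the 3 genotypes of an age together (2 at 10.7 months), with two-sided moderated tests and Benjamini-Hochberg adjustment over the 22626 probe sets at 0.05 and no fold threshold. Age was an F test over the 3 ages of a genotype. The fit was tested on simulated data, with no outcome given here. Permutation tests used 100000 resamples, in Python 3.11.15 with numpy 2.4.6, scipy 1.17.1, pandas 2.3.3 and matplotlib 3.10.9. Upstream sequences are RefSeq's.

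The members, gene lists (7 pathway and 12 marker lists) and rules were chosen with earlier results of these data known. Named are the members called between rTg4510 and tTA mice (at most 20 a direction), up to 10 a direction in other comparisons, the brightest member of each family and up to 3 genes of each pathway list; Grin2b at 4.7 months, Grin2c, Gria2 to Gria4 and other members without a call were added for their family. Tried as alternatives were centring, quantile normalisation, linear signals, a linear model without moderation, probe sets of higher signal, the mean over a gene's probe sets, other groups in the fit, adjustment for the choroid plexus score, and leaving out mouse 40, mouse 21, the 6.1 month mice numbered 75 and above, or each 10.7 month mouse in turn.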

Additional observations from a re-analysis of the deposited data

Results flagged for a closer look

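Within each genotype and age group, the highest or lowest mouse was listed when its distance from its neighbour, as a share of the group's range, exceeded Dixon's critical value. Of 243 such groups over 27 named genes 19 were marked, 7.82%, in 14 mice; chance marks about 1 in 20 groups. The part that array or tissue quality had in them was not tested.

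Mouse 21, a tTA mouse of 6.1 months, stood apart in 3 genes: high in Grik5 (9.1 against 8.784 in the nearest mouse) and Grin2c (6.914 against 6.419 in the nearest mouse) and low in Htr2c (4.173 against 5.084 in the nearest mouse). A DN mouse of 10.7 months stood apart in 3 genes: low in Chrna4 (4.163 against 4.904 in the nearest mouse), Gria2 (10.587 against 10.793 in the nearest mouse) and Grid1 (5.117 against 5.362 in the nearest mouse). Mouse 37, an rTg4510 mouse of 4.7 months, stood apart in 2 genes: low in Gabbr1 (10.39 against 10.658 in the nearest mouse) and Grin2c (5.654 against 6.297 in the nearest mouse). Single mice were high in Adra2c in tTA 6.1 months (5.136 against 4.925), Chrna7 in DN 10.7 months (4.67 against 4.264), Gabrd in tTA 4.7 months (6.14 against 5.719), Grin2b in rTg4510 4.7 months (5.397 against 5.064), Htr4 in tTA 10.7 months (3.347 against 3.223) and Htr6 in DN 6.1 months (3.954 against 3.67). Single mice were low in Gabrd in rTg4510 1.9 months (4.741 against 5.188), Grid1 in rTg4510 4.7 months (4.759 against 5.058), Grin2b in tTA 4.7 months (4.335 against 5.147), Htr1a in DN 6.1 months (7.025 against 7.256) and Htr4 in tTA 6.1 months (2.961 against 3.199). No call of a difference in Gabrd or Htr1a at 4.7 or 6.1 months was lost under any alternative that was run.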

How the results depend on the processing

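Of 574 recomputed values of named genes under the alternatives, 531 kept their direction and their side of the threshold, 43 kept the direction and lost the call, and 0 reversed. Counts of called members that moved by over 1.5 times were these. In rTg4510 against tTA at 6.1 months the 11 became 7 with all 9 groups in the fit and 6 with only the compared groups in it. With only the brighter probe sets, which leaves 16 of the 69 members, the 10 of rTg4510 against DN at 4.7 months became 6, the 17 at 6.1 months 9, the 4 of tTA against DN at 4.7 months 2, the 4 of age in rTg4510 mice 2, and the 0 of age in DN mice 1 (Gabrg1, also 1 after adjustment for the choroid plexus score). The 2 of tTA against DN at 10.7 months became 1 (Gabrd) on the linear scale and under the plain linear model, where Htr1a had adjusted p = 0.0789 and 0.0679, and both calls held without each of the 10 mice in turn. Age in tTA mice gave 1 (Gabra2) with all 9 groups in place of 0. For the other moves the cause was not tested. Leaving out mouse 40 or mouse 21 added calls between rTg4510 and tTA mice and removed none. With arrays centred on their medians, 8 of 9 calls at 4.7 months and 12 of 12 at 6.1 months were lower. Centring also moved the median difference of rTg4510 from tTA over all genes downward. It went from -0.0092 to -0.0332 at the earlier age, and from -0.0198 to -0.051 at the later one. Because this shift is in the median of all genes, the centred counts do not show that receptor genes in particular are lower.

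Drd2 and the striatum score over all 76 mice had Pearson r = 0.295 (permutation p = 0.00932, adjusted p = 0.0373 over 16 relations) and Spearman rho = 0.0967 (permutation p = 0.406); without the 2 mice farthest from the median score r was 0.135 (permutation p = 0.251), so the relation rests on those mice. Within groups of at least 6 mice the lowest r was -0.64, in tTA mice of 4.7 months (permutation p = 0.0493, adjusted p = 0.0877). The highest was 0.852, in rTg4510 mice of 6.1 months (exact permutation p = 0.0389, adjusted p = 0.0778). Without the 2 farthest mice of each group these became -0.331 and 0.245. In tTA mice of 6.1 months r was 0.39 and became -0.0654. No paired analysis was possible because each mouse number names 1 mouse and no number is shared between groups.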
